A study of Penicillium oxalicum with 9 samples.

Results

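The 94 genes described here are expressed by Penicillium oxalicum on cellulose, and their RNA was at most 0.25 times as abundant without the regulator gene cxrA but near the background level without the arginine methyltransferase gene prmt3. They were chosen by value from 11082 features. A gene entered with an FPKM of at least 20 in all 3 libraries of the background strain Δku70, a ΔcxrA mean of at most 0.25 times the Δku70 mean, and a Δprmt3 mean of 0.67 to 1.5 times the Δku70 mean. FPKM are sequenced fragments of a gene, corrected for its length and for the mapped fragments of the library, and all levels below are FPKM divided by 1 scaling factor for each library (scaled FPKM). The 94 genes made up 1.77% of the 5323 genes with an FPKM of at least 20 in Δku70, which serve below as the background genes. POX_d05671, POX_d04867, POX_c04123 and POX_c04517, and the genes POX_a00748 to POX_a00778 around cxrA, were left out by the rule. Because the rule used the strain means, the levels in ΔcxrA and Δprmt3 are a description of the genes and are not tested as a finding.

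RNA was sequenced from mycelium of 3 strains derived from isolate HP7-1, with 3 biological replicates each. Δku70, called WT in the labels, lacks ku70, whose loss favours targeted gene replacement, and carries a hygromycin resistance marker. Δprmt3 (POX03070 knockout in the labels) and ΔcxrA (PoxCxrA knockout in the labels) were built on the ku70 deletion with a G418 resistance marker, so that all 3 strains share the loss of ku70, and which transformants were sequenced was not given in the sources used here. Mycelium was grown for 24 h at 28°C with 1% glucose and then moved for 24 h to 2% Avicel, a microcrystalline cellulose.

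CxrA is a Gal4-like transcription factor of the Zn2Cys6 zinc cluster family, and fungal regulators of this kind bind the promoters of genes that they switch on when plant polysaccharides are the carbon source. PRMT3 belongs to the protein arginine methyltransferases, enzymes that add methyl groups to arginine residues of other proteins. The enzymes that open cellulose and hemicellulose act together. Endoglucanases cut inside the cellulose chain, cellobiohydrolases work from its ends, lytic polysaccharide monooxygenases (LPMO) break the chain by oxidation, β-glucosidases split the short products into glucose, and xylanases cut the xylan backbone.

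Expression of the deleted gene cxrA matched its label. For prmt3 the values are no separate check, because the label POX03070 was read as prmt3 from them. Expression of cxrA (POX_a00763) was 122, 133 and 94.1 scaled FPKM in the Δku70 libraries, 157, 125 and 118 in the Δprmt3 libraries, and it was listed at 0 in all ΔcxrA libraries. Expression of prmt3 (POX_b03080) was 35.1, 27.4 and 30.2 in Δku70, 51.3, 51.2 and 58.2 in ΔcxrA, and 0, 0.047 and 0 in Δprmt3. Library totals lay between 1036054 and 1096738 FPKM, with 9846 to 10270 features above 0. The actin gene POX_d06005, the reference gene of the study's RT-qPCR, had 35.4 ± 1.38 scaled FPKM in Δku70, 34.5 ± 2.49 in Δprmt3 and 94.5 ± 5.53 in ΔcxrA (SD, n = 3 each). The conidiation regulators brlA, abaA and flbD, set as markers of spore-forming cells, summed to 299 to 367 scaled FPKM in the Δku70 libraries, 60.9 to 96.1 in Δprmt3 and 27.5 to 30.9 in ΔcxrA. None of the 3 was at 0 in a strain, and abaA alone was not lower in ΔcxrA, with means of 14.2, 5.42 and 18.5 in Δku70, Δprmt3 and ΔcxrA. The material labelled mycelium thus carried RNA of conidiation regulators in Δku70 and less of it, in sum, in both mutants. The sum was lowest in ΔcxrA, and its part in the ΔcxrA level of the 94 genes was not tested. In whole mycelium, fewer cells of a type and less RNA per cell cannot be told apart.

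Of the 5323 background genes, 432 (8.12%) had a ΔcxrA mean at or below 0.25 times Δku70. In Δprmt3, 303 of these 432 lay under 0.67 times Δku70, 32 lay over 1.5 times, and 97 lay in between. Of the 97, 3 were left out by the rule, namely the deleted gene cxrA itself and the cellobiohydrolase genes POX_d04867 and POX_d05671. Most genes this low in ΔcxrA were therefore also low in Δprmt3, and the 94 come from the smaller set that was not.

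**Figure D1:**
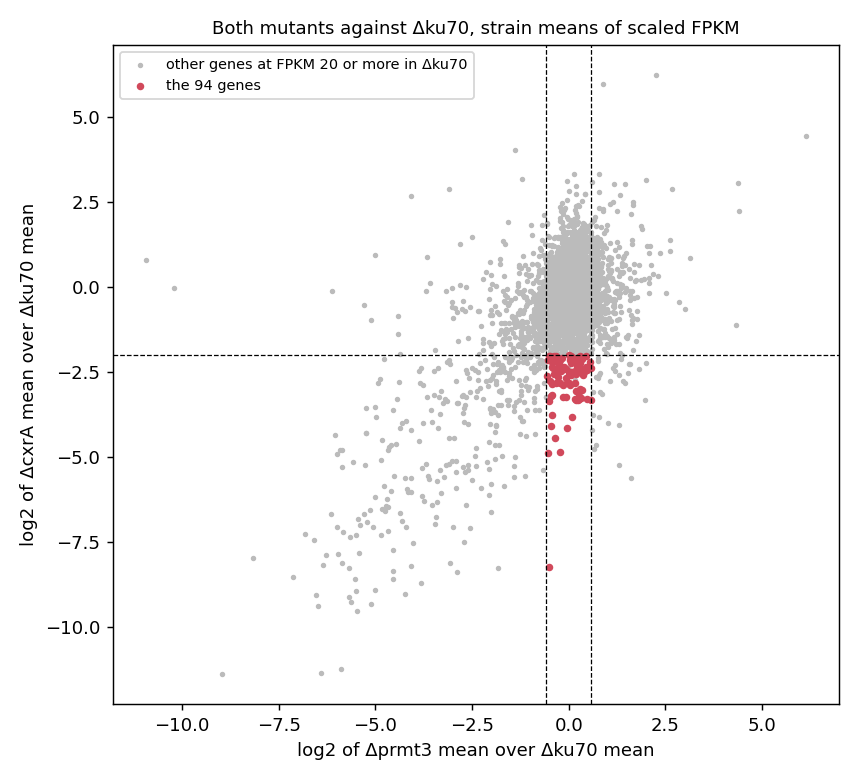
Each point is a gene with an FPKM of at least 20 in all Δku70 libraries, placed by the log2 ratio of the Δprmt3 mean to the Δku70 mean (x) and of the ΔcxrA mean to the Δku70 mean (y), for 5319 genes; 4 genes with a mutant mean of 0 are not drawn. The dashed lines are the limits of 0.67 and 1.5 (vertical) and 0.25 (horizontal), and the 94 genes in red fill the box below the horizontal line, while a long tail of other genes runs to the lower left, low in both mutants.

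The ratio of ΔcxrA to Δku70 ran from 0.00333 to 0.249, with a median of 0.178 against 0.866 for the background genes. It was at most 0.05 in 4 genes, over 0.05 and up to 0.1 in 8, over 0.1 and up to 0.15 in 21, over 0.15 and up to 0.2 in 30, and above that in 31. All 3 ΔcxrA libraries lay below all 3 Δku70 libraries in 94 of the 94, where 48.3% of the background genes did so, and the rule itself brings this about. With limma the log2 fold change passed the thresholds (adjusted p under 0.05 and a change of more than 1 on the log2 scale) downward in all 94, beside 18.7% of the background genes and 13.2% of all features tested. The choice of the genes on the same libraries fixes this count, and nothing is read from it. In Δprmt3 the ratio ran from 0.675 to 1.49 with a median of 1.03, above 1 in 50 genes and at or below 1 in 44. None of the 94 passed both thresholds in Δprmt3, where 10.8% of the background genes and 11.1% of all features did. At any size of change 12 had an adjusted p under 0.05, where 32.6% of the background genes and 26.3% of all features did. Of the 12, 8 were higher (15.4% of the background genes, 12.6% of all features) and 4 lower (17.2% and 13.8%), and the limits of the rule hold all of these counts down. In the fit with only the 6 Δku70 and Δprmt3 libraries this number was 6, and with single libraries left out it lay between 3 and 19. The interval of the Δprmt3 difference (95%, limma) lay wholly within 0.67 to 1.5 times in 41 of the 94, and it reached a 2-fold difference in 10. The rule used the same libraries, which draws these intervals inside the limits, so their coverage is not 95%. They are a description. With 3 libraries a strain they do not show whether the level of a gene in Δprmt3 lies inside the limits.

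Added up over the 94 genes, expression was 64520, 66557 and 68355 scaled FPKM in the Δku70 libraries, 68798, 77840 and 74810 in the Δprmt3 libraries, and 10024, 10449 and 11150 in the ΔcxrA libraries. They held 5.70% to 6.01% of the scaled FPKM of a Δku70 library, 5.67% to 6.11% in Δprmt3 and 1.18% to 1.29% in ΔcxrA. Their Δku70 means ran from 30.6 to 9583 with a median of 208, against 65.1 for the background genes, with 16 genes over 1000 and 23 under 100. The highest mean of any background gene was 11314, so the most abundant of the 94 stands near the top of the range.

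By the study's annotation 58 of the 94 are hypothetical proteins, 22 are not in the annotated lists read here, and 14 have a named function, comprising 7 plant-polysaccharide-degrading enzymes, 5 transcription factors and 2 sugar transporters. The annotated lists are the study's own calls on these libraries, and one was read in part, so the shares of the classes are not independent evidence. Of the 52 enzyme genes among the background genes, 23 lay at or below 0.25 times Δku70 in ΔcxrA. In Δprmt3, 11 of these 23 lay over 1.5 times Δku70, 3 lay under 0.67 times and 9 lay in between. Of the 70 transcription factor genes, 20 were as low in ΔcxrA, of which 12 lay under 0.67 times Δku70 in Δprmt3, 6 in between and 2 over 1.5 times. Of the 25 sugar transporter genes the numbers were 8, 5, 2 and 1. Of all 432 genes this low in ΔcxrA, 303 lay under 0.67 times, 97 in between and 32 over 1.5 times, and no difference between the classes was tested. Of all 10578 features tested with limma, 13.2% were called lower and 16.4% higher in ΔcxrA, and 7.51% lower and 3.59% higher in Δprmt3. Over the 89 enzyme genes tested, 55 were called lower and 14 higher in ΔcxrA, and 11 lower and 35 higher in Δprmt3. Over the 136 transcription factor genes tested, 68 were called lower and 58 higher in ΔcxrA, and 20 lower and 13 higher in Δprmt3. Over the 41 transporter genes the numbers were 21 and 8 in ΔcxrA, and 13 and 13 in Δprmt3. The 2 mutants share their Δku70 control libraries.

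A xylanase gene had the highest Δku70 mean of the 14 genes with a named function. The endo-β-1,4-xylanase gene POX_g08543 had 4058, 3791 and 4704 scaled FPKM in Δku70, 4999, 5502 and 4852 in Δprmt3, and 799, 922 and 1106 in ΔcxrA. The ΔcxrA mean was 4.44-fold lower than the Δku70 mean, while every Δprmt3 library lay above every Δku70 library, by 1.22 times on the means. The interval of this Δprmt3 difference ran from 0.95 to 1.58 times Δku70 and so included no change. All Δprmt3 libraries were likewise above in 23.9% of the background genes. The xylanase gene POX_e06720 had 1167, 1065 and 1296 in Δku70, 1266, 1396 and 1299 in Δprmt3, and 138, 159 and 203 in ΔcxrA, 7.06-fold lower on the means. Here the Δprmt3 and Δku70 libraries overlapped. The third xylanase gene, POX_b03446, stood near the limit, with 781 ± 120 in Δku70, 813 ± 93.2 in Δprmt3 and 192 ± 53.2 in ΔcxrA (SD, n = 3 each), a ratio of 0.246.

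Of the enzymes that attack cellulose, the LPMO gene POX_g09366 was the lowest in ΔcxrA. It had 581, 522 and 848 scaled FPKM in Δku70, 560, 613 and 499 in Δprmt3, and 15.2, 22.8 and 28.8 in ΔcxrA. The ΔcxrA mean was 29.2-fold lower, and the Δprmt3 libraries overlapped those of Δku70. The endoglucanase gene POX_h09768 had 150, 150 and 410 in Δku70, 234, 227 and 210 in Δprmt3, and 26.5, 24.2 and 24.4 in ΔcxrA. Library 3 decides the Δku70 mean of this gene. Without it the ratio of ΔcxrA to Δku70 was 0.167 in place of 0.106, and that of Δprmt3 was 1.49 in place of 0.945.

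The β-glucosidase genes, whose products release glucose, had Δprmt3 means on opposite sides of the background level. POX_b03072 had 129, 131 and 167 scaled FPKM in Δku70, 168, 220 and 193 in Δprmt3, and 24.3, 27.0 and 31.7 in ΔcxrA. Its Δprmt3 libraries lay above all Δku70 libraries, with a ratio of 1.36 and an interval from 1.08 to 1.71. POX_g09069 was weakly expressed, with 42.6 ± 11.6 in Δku70, 30.5 ± 5.51 in Δprmt3 and 6.21 ± 0.48 in ΔcxrA (SD, n = 3 each), and its libraries in Δprmt3 and Δku70 overlapped. In both genes the ΔcxrA libraries stood far below the others.

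Sugar transporters carry the released sugars into the hypha. The sugar/inositol transporter gene POX_f07452 had 367, 386 and 388 scaled FPKM in Δku70, 488, 605 and 453 in Δprmt3, and 84.1, 94.9 and 102 in ΔcxrA. Its interval in Δprmt3, 1.12 to 1.62 times Δku70, ran past the limit of 1.5. POX_b03107 had 334, 359 and 224 in Δku70, 280, 226 and 257 in Δprmt3, and 53.8, 49.9 and 43.7 in ΔcxrA. The Δprmt3 and Δku70 libraries of this gene overlapped, and those of ΔcxrA lay 6.23-fold lower on the means.

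Of the transcription factor genes, one stood out by its level. POX_a00746, annotated with a winged helix repressor DNA-binding domain, had 1222, 1197 and 830 scaled FPKM in Δku70, 1169, 1269 and 1197 in Δprmt3, and 97.2, 108 and 123 in ΔcxrA, 9.90-fold lower on the means. It lies near the deleted cxrA gene, with 16 genes between them in RefSeq assembly ASM172317v3, just outside the stretch that the rule leaves out. The homeobox gene POX_f08102 had 44.1, 43.4 and 32.9 in Δku70, 36.0, 25.1 and 27.0 in Δprmt3, and 2.67, 2.35 and 2.11 in ΔcxrA. Homeobox proteins bind DNA through a helix-turn-helix fold, and this gene was 16.9-fold lower in ΔcxrA. The C2H2 zinc finger gene POX_f07563 had 75.6, 108 and 97.2 in Δku70, 118, 134 and 157 in Δprmt3, and 22.8, 18.1 and 19.8 in ΔcxrA, and its Δprmt3 libraries lay above those of Δku70 (ratio 1.46). A further C2H2 gene, POX_a01508, had 46.4 ± 2.14 in Δku70, 55.6 ± 9.76 in Δprmt3 and 11 ± 0.58 in ΔcxrA (SD, n = 3 each). POX_e06803, annotated as a centromere protein B transcription factor after a family of DNA-binding proteins related to transposases, had 126, 132 and 133 in Δku70, 178, 161 and 160 in Δprmt3, and 28.8, 30.1 and 31.1 in ΔcxrA. In 3 of the 5 the Δprmt3 and Δku70 libraries overlapped, as in 52.6% of the background genes, and in POX_f07563 and POX_e06803 all Δprmt3 libraries were above, as in 23.9%.

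**Figure D2:**
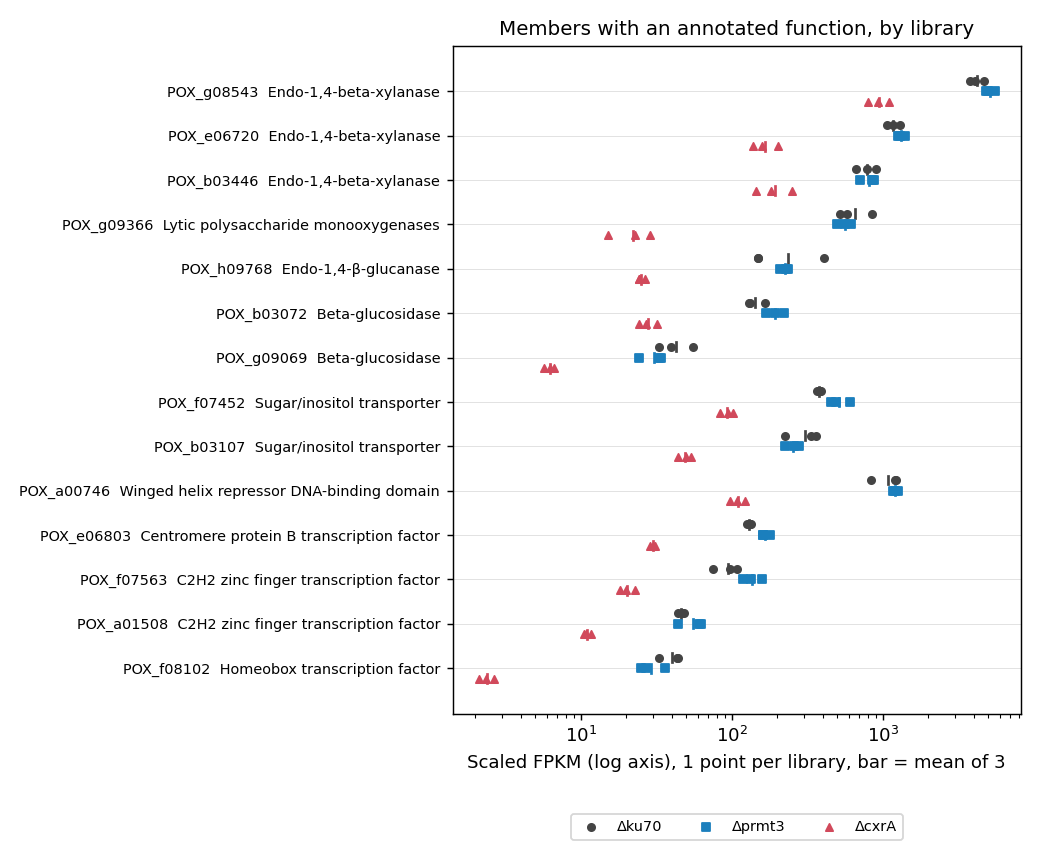
The 14 genes with an annotated function are drawn with 1 point per library on a log axis of scaled FPKM, in Δku70 (circles), Δprmt3 (squares) and ΔcxrA (triangles), and a bar at the mean of 3. In every gene the triangles stand apart to the left, from 4.06-fold lower on the means in the transporter gene POX_f07452 to 29.2-fold lower in the LPMO gene POX_g09366, while squares and circles lie together or side by side.

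Most of the most abundant members had no function named in the annotations read here. Such a label does not mean that the function is unknown, as prmt3 itself is listed there as a hypothetical protein. POX_a00825, a hypothetical protein with a short gene, had 8694, 9479 and 10575 scaled FPKM in Δku70, 12033, 16271 and 14467 in Δprmt3, and 883, 1024 and 964 in ΔcxrA. It lay just inside the upper limit, at 1.49 times Δku70 in Δprmt3, with an interval from 1.11 to 1.97. The hypothetical protein gene POX_c03579 had 7436, 7431 and 5014 in Δku70, 5773, 4618 and 5801 in Δprmt3, and 1346, 1269 and 1063 in ΔcxrA. Next came POX_e06297, which is not in the annotated lists, with 4404 ± 460 in Δku70, 5419 ± 1427 in Δprmt3 and 552 ± 23.3 in ΔcxrA (SD, n = 3 each). After the xylanase gene POX_g08543 followed POX_e06757, POX_c04336, POX_b03247, POX_g08542, POX_b03106 and POX_b03340, with Δku70 means from 2870 down to 1634 and ratios in ΔcxrA from 0.101 to 0.211. Of these 6, POX_b03340 was closest to its background level in Δprmt3, with 1543, 1546 and 1815 in Δku70 and 1498, 1664 and 1733 in Δprmt3.

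The lowest ratio in ΔcxrA belonged to the hypothetical protein gene POX_c03698, with 603, 493 and 401 scaled FPKM in Δku70, 371, 292 and 390 in Δprmt3, and 3.95, 1.03 and 0 in ΔcxrA. One ΔcxrA library was thus listed at 0, and all Δprmt3 libraries lay below all Δku70 libraries. The next were POX_b02604 and the LPMO gene, with ratios of 0.0341 and 0.0343, and then POX_f07442, POX_b02015, POX_f08102, POX_g08726, POX_c03750, POX_f07457 and POX_b02494, from 0.0457 to 0.0990. POX_b02604 had 198, 181 and 180 in Δku70, 119, 137 and 131 in Δprmt3, and 6.71, 7.41 and 5.0 in ΔcxrA, so that it was lower in both mutants, by 29.3-fold in ΔcxrA and to 0.691 times in Δprmt3. The hypothetical protein gene POX_b02015 combined a high level with a stable one in Δprmt3, with 1141, 1263 and 1530 in Δku70, 1228, 1230 and 1363 in Δprmt3, and 81.0, 72.2 and 70.5 in ΔcxrA.

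**Figure D3:**
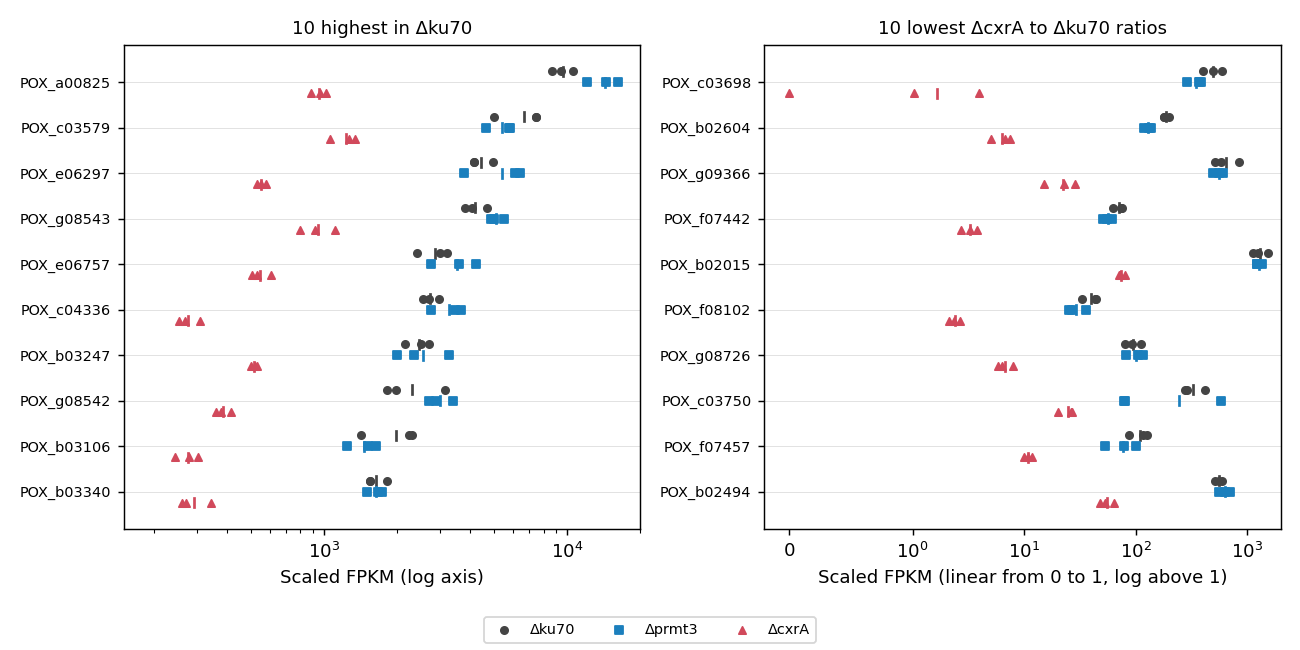
Scaled FPKM by library of the 10 genes with the highest Δku70 mean (left, log axis) and the 10 with the lowest ratio of ΔcxrA to Δku70 (right, linear from 0 to 1 and log above), with circles for Δku70, squares for Δprmt3, triangles for ΔcxrA and bars at the means. The ΔcxrA libraries lie below both other strains in each gene, POX_c03698 reaches 0 in 1 library, and POX_c03750 has 1 Δprmt3 library at 584 far from the others at 78.6 and 80.1.

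The means hide some disagreement between libraries. In 60 of the 94 genes each of the 3 Δprmt3 libraries lay within 0.67 to 1.5 times the Δku70 mean, in 15 at least 1 was over 1.5 times and in 22 at least 1 was under 0.67 times. No share of the background genes was computed for these counts, and the limits of the rule on the Δprmt3 mean shape them. The Δprmt3 and Δku70 libraries overlapped in 68 genes (72.3%), against 52.6% of the background genes. All Δprmt3 libraries were above in 15 and below in 11, where 23.9% and 23.6% of the background genes were above and below. The same limits shape these counts too. POX_c03750, a hypothetical protein gene, had 424, 281 and 288 in Δku70 and 584, 78.6 and 80.1 in Δprmt3, and without Δprmt3 library 1 its ratio was 0.24 and its log2 fold change -2.03 (adjusted p = 0.00056 from limma), so that its place among the 94 rests on 1 library. Library 1 of Δprmt3 was over 2 times both others in 3 genes, POX_c03750, POX_b02492 and POX_b02868, as in 1.13% of the background genes. POX_f07840 had 226, 583 and 229 in Δku70 and 297, 166 and 709 in Δprmt3, and without Δku70 library 2 its ratios were 0.352 in ΔcxrA and 1.72 in Δprmt3. These genes were singled out for their spread.

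The spread among libraries of one strain was read as well. The median coefficient of variation was 13.98% in Δku70, 13.5% in Δprmt3 and 11.5% in ΔcxrA, against 8.84%, 9.66% and 6.73% for the background genes. Library 3 was the highest Δku70 library in 47 of the 94 (50%), against 40.7% of the background genes, and it was over 1.5 times the mean of the other 2 in 11 (11.7%, against 3.81% of the background genes) and under 0.67 times in 8 (8.51%, against 3.61%). By class, all 7 enzyme genes were highest in Δku70 library 3, with a median of 1.28 times the mean of the other libraries, as were 1 of the 5 transcription factor genes and 30 of the 58 hypothetical protein genes. Library 3 of ΔcxrA was the highest of its strain in 61 genes (64.9%), against 48.8% of the background genes. Leaving out Δku70 library 3 left 88 genes within the limits, 79 of them among the 94.

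The same measure was read in libraries that took no part in the choice. The rule was applied to 2 libraries of each strain, and the ratios of the remaining libraries were read for the genes so chosen. With library number 1 left out, 99 genes were chosen, and in the left-out libraries the median ratio of ΔcxrA to Δku70 was 0.170, with 84 (84.8%) at or below 0.25. With number 2 left out, 100 genes were chosen, with a median of 0.171 and 88 (88.0%) at or below 0.25, and with number 3 left out, 95 were chosen, with a median of 0.189 and 72 (75.8%) at or below 0.25. In the round without number 3, POX_a00371 had no ratio and was counted as outside the limits in both mutants. POX_d06152 and POX_u09927, with identical values, were both counted in the rounds without number 1 and number 2. Of the background genes, 8.06% to 8.34% lay at or below 0.25 in the same libraries. For most of the genes chosen in a round, the low level in ΔcxrA therefore recurred in the left-out libraries of the same experiment. The chosen genes differed between rounds. With number 1, 2 and 3 left out, 81, 80 and 80 of them were also in the full set described here. That set was chosen on all libraries, so the rounds describe the rule and are no separate test of the set. In Δprmt3 the left-out ratio lay within 0.67 to 1.5 in 70 of 99 (70.7%), 59 of 100 (59.0%) and 75 of 95 (78.9%), with medians of 0.949, 1.07 and 0.993. Of the background genes, 73.0%, 78.5% and 74.8% lay within the same limits, so the share of the chosen genes was below that of the background in the first and second rounds and above it in the third. Both limits were met in the left-out libraries by 61, 52 and 55 genes, for which no share of the background genes was computed. The scaling factors came from all 9 libraries.

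**Figure D4:**
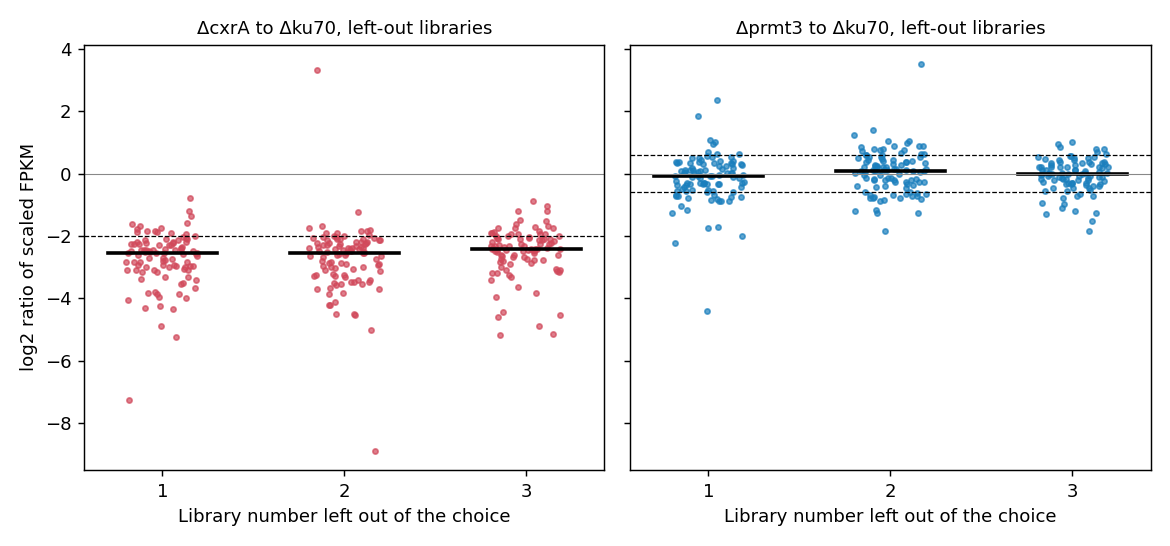
Each point is a gene chosen with 2 libraries of each strain, at the log2 ratio read in the left-out library of ΔcxrA (left) or Δprmt3 (right) to the left-out library of Δku70, with black bars at the medians and dashed lines at the limits of the rule. The medians of 0.170, 0.171 and 0.189 stay below the limit of 0.25 in ΔcxrA, and the points of Δprmt3 centre near no change, with medians from 0.949 to 1.07, and spread beyond both limits.

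At the limits the genes pass into their neighbours without a gap. Just inside the ΔcxrA limit stood POX_d05940 and POX_d05933 with ratios of 0.249 and 0.247, and just outside POX_d05771 and POX_f08387 with 0.251 and 0.252. At the lower Δprmt3 limit the nearest inside were POX_d05773 and POX_c04196 with 0.675 and 0.687, and just outside lay POX_d06152 and POX_u09927, both at 0.661 with identical values in every library. At the upper limit POX_c04399 and POX_a00825 lay inside with 1.49 each, and POX_c04632 and POX_e06206 outside with 1.51 and 1.54. At the floor, the lowest Δku70 FPKM were 25.9 in POX_c03889 and 27.5 in POX_a01002 inside, and 19.9 in the feruloyl esterase gene POX_a00813 and 18.1 in POX_e06787 outside.

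The position of the genes was not used by the rule. All 94 were found in RefSeq assembly ASM172317v3, which gives their order but may differ from the build behind the files, and they lay on every chromosome of that assembly, with 6 to 21 on each. In 6 cases 2 of the genes were direct neighbours, and with up to 2 genes between them there were 11 such pairs, taking in 22 of the 94, and no longer run. Of the genes directly beside a member, 101 were background genes, 12 of them members themselves. Of the 101, 20 (19.8%) lay at or below 0.25 times Δku70 in ΔcxrA, against 8.12% of all background genes, and 34 (33.7%) at or below 0.5 times, against 19.1%. Without the 12 members the numbers were 8 of 89 (8.99%) and 22 of 89 (24.7%), but that count leaves out low neighbours by their value. The median ratio was 0.718 with the members and 0.812 without them, against 0.866 for the background genes, and these shares were not tested. The median gene length was 1250.5 bases, against 1452 for the background genes.

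Some of the pairs joined an enzyme or transporter gene with a gene annotated only as a hypothetical protein. The xylanase gene POX_g08543 stands beside POX_g08542, a hypothetical protein gene with 1972, 1807 and 3137 scaled FPKM in Δku70, 2881, 3378 and 2714 in Δprmt3, and 361, 378 and 412 in ΔcxrA. On the other side of the pair, POX_g08541 was low in both mutants, at 0.225 and 0.466 times Δku70 in ΔcxrA and Δprmt3. The endoglucanase gene POX_h09768 stands beside POX_h09769, a hypothetical protein gene with 1113 ± 132 in Δku70, 1213 ± 113 in Δprmt3 and 263 ± 11 in ΔcxrA (SD, n = 3 each). Its other neighbour, the endo-mannanase gene POX_h09767, was just over the limit of 0.25 times Δku70 in ΔcxrA and at 2.61 times in Δprmt3, a rise that lost its limma call with any of 4 libraries left out (adjusted p from 0.060 to 0.068). The transporter gene POX_b03107 stands beside POX_b03106, with 2294, 2241 and 1413 in Δku70, 1639, 1245 and 1515 in Δprmt3, and 302, 279 and 243 in ΔcxrA. In both genes of this pair Δku70 library 3 was the lowest of its strain.

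Between the members POX_b02492 and POX_b02494, with ratios of 0.0990 each in ΔcxrA, lies POX_b02493, a Zn2Cys6 transcription factor gene named here for its values. Its mean was 56.7 scaled FPKM in Δku70, 3.36 in ΔcxrA and 140 in Δprmt3, or 0.0594 and 2.47 times Δku70. POX_b02492 had 349, 353 and 306 in Δku70, 676, 267 and 252 in Δprmt3, and 33.7, 31.4 and 34.7 in ΔcxrA. POX_b02494 had 558, 596 and 513 in Δku70, 710, 635 and 558 in Δprmt3, and 47.8, 53.2 and 64.1 in ΔcxrA. The 3 adjacent genes were thus 10.1-fold or more lower in ΔcxrA, and in Δprmt3 the regulator gene lay over the upper limit. The hypothetical protein genes POX_b02072 and POX_b02073, both above Δku70 in every Δprmt3 library, had ratios of 0.185 and 0.197 in ΔcxrA, and the next 2 genes, POX_b02074 and POX_b02075, had 0.374 and 0.399. The other direct neighbours were POX_a01841 and POX_a01842, with ratios of 0.170 and 0.219, and POX_d05171 and POX_d05172, with 0.167 and 0.141. All 4 are hypothetical protein genes and lay between 0.977 and 1.17 times Δku70 in Δprmt3.

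**Figure D5:**
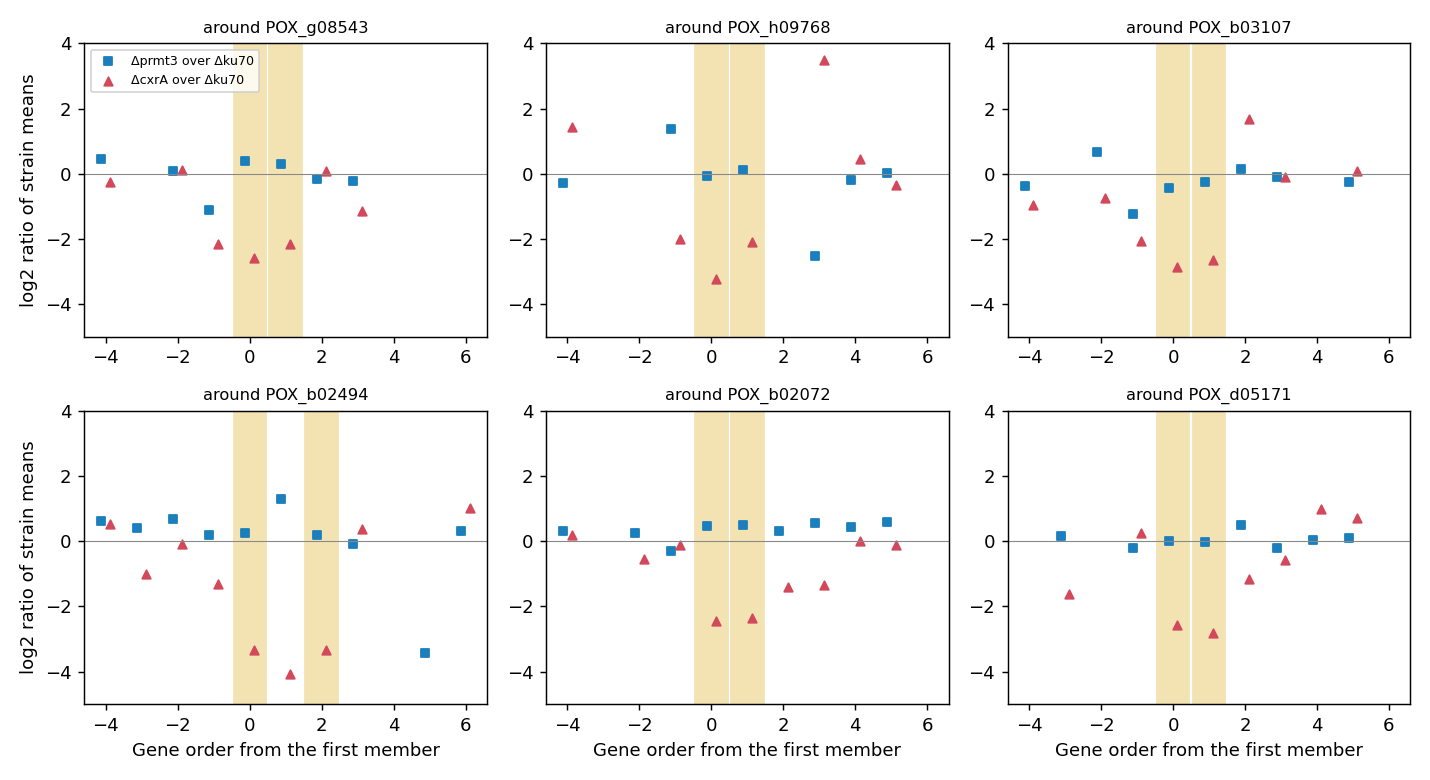
Log2 ratios of the ΔcxrA mean (triangles) and Δprmt3 mean (squares) to the Δku70 mean, by gene order from the first member in 6 stretches of neighbouring genes, for genes with a mean of at least 10 scaled FPKM in Δku70; shaded columns mark the members, and a gene with a mutant mean of 0 has no point for that mutant. The triangles drop below -2 within the shaded columns while the squares stay near 0 there, as the choice of the members fixes.

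The number of genes depends on how the libraries are scaled to each other. On FPKM without further scaling 51 genes met the limits, of which 45 were among the 94, and under quantile normalization 76 did, of which 71 were. Without scaling the median background gene moved by 0.41 on the log2 scale in ΔcxrA and by -0.16 in Δprmt3. Relative to the median background gene, the members' median in ΔcxrA was -2.28 on the log2 scale under all 3 scalings. Dividing a library by a factor moves members and background genes almost alike, so this difference could hardly change between scaled and unscaled FPKM. The members were also chosen on the scaled FPKM, and nothing is read from the agreement. Without any one library in turn, 63 of the 94 genes stayed within every limit.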

How the data were processed

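Per the study's methods, reads were filtered in SOAPnuke, aligned in HISAT2 and quantified through Bowtie2 and RSEM, and the authors deposited FPKM, 1 table per library, for the 9 libraries. The genome build of the files was not given in the sources used here. Read counts were not analysed here, so the depth of a library and the counting error of a value are unknown. Groups and replicate numbers came from the sample labels, and POX03070 was read as prmt3 because POX_b03080 was at or near 0 in those libraries.

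FPKM were divided by median-of-ratios factors over 9335 features above 0 in all libraries (0.909 to 0.964 in Δku70, 0.822 to 0.863 in Δprmt3, 1.23 to 1.28 in ΔcxrA). In R 4.3.3, limma 3.58.1 (eBayes with trend) was fitted to log2(scaled FPKM + 0.1) of 10578 features from all 3 strains, without 504 at 0 throughout. Benjamini-Hochberg adjustment was made per comparison. The added 0.1 makes the fold changes of low genes smaller. Where a library is at 0 they can still exceed the log2 ratio of means, as in POX_c03698 in ΔcxrA (-9.32 against -8.23). The fit was tested on simulated data. Python 3.11.15, pandas 2.3.3, numpy 2.4.6 and matplotlib 3.10.9 served for tables and figures.

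The genes and lists were chosen with earlier results of these data known. Genes named are the members with an annotated function, the 10 with the highest Δku70 mean, the 10 with the lowest ΔcxrA ratio, the 2 nearest on each side of each limit, direct neighbours, and the deleted and reference genes; others are named for their values, as stated. Functions came from the study's annotated lists, gene order and length from RefSeq assembly ASM172317v3. No sequence was used here, so a planned search of promoters was not run, and the planned classes of protease and oxidoreductase genes could not be applied to the annotations read.

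Alternatives were a pseudocount of 1 or 0.01, FPKM left unscaled, quantile normalization, only features with a mean FPKM of 1 or more, floors of 10 and 50, medians in place of means, only the 6 libraries of a comparison, the replicate number as a block, and each library left out in turn.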

Additional observations from a re-analysis of the deposited data

How the results depend on the processing

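The count of genes within the limits was 51 on FPKM without further scaling and between 76 and 101 under quantile normalization, floors of 10 and 50 and medians of the 3 libraries, with 88 to 102 when 1 library was left out. The median log2 ratio of the 94 genes was -2.49 in ΔcxrA, -2.08 without further scaling, -2.32 under quantile normalization and between -2.53 and -2.43 with 1 library left out. In Δprmt3 it was 0.04, -0.13 without further scaling and between -0.02 and 0.06 with 1 library left out.

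The number with an adjusted p under 0.05 in Δprmt3 was 12, fell to 6 with only the 6 libraries of the comparison, and lay between 3 (without Δku70 replicate 1) and 19 (without Δprmt3 replicate 1) with 1 library left out. It was also moved by over 1.5 times without Δku70 replicate 2 (5), Δprmt3 replicates 2 (5) and 3 (7) and ΔcxrA replicate 2 (6); the cause was not tested. With the replicate number as a block the counts were 94 in ΔcxrA, which the choice of the genes fixes, and 13 in Δprmt3. Deviations of same-numbered libraries correlated between -0.15 and 0.14, and those of different-numbered libraries between -0.26 and 0.19. No pairing by number was seen, and a batch that does not follow the number cannot be told from these values. Of 69 genes named and fitted under 16 alternatives, 4 passed the thresholds only under 1 alternative, namely POX_c03750 in Δprmt3 (-2.03 without Δprmt3 replicate 1), POX_d06152 and POX_u09927 in Δprmt3 (-1.14 without Δprmt3 replicate 3) and prmt3 itself in ΔcxrA (1.21 without further scaling). A further 3, none of them among the 94, missed a threshold under some: POX_b02075 in ΔcxrA (-0.90 without further scaling), POX_g08541 in Δprmt3 (-0.92 without Δku70 replicate 3, -0.98 without Δprmt3 replicate 1) and POX_h09767 in Δprmt3 (1.21 to 1.44 without Δku70 replicate 1 or 2 or Δprmt3 replicate 2 or 3). With 3 libraries a strain and no read counts, differences in Δprmt3 within the limits of 0.67 to 1.5 could not be resolved for most of the genes.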

Other observations

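Of 51 loci without an annotated identifier that had an FPKM of at least 20 in all Δku70 libraries, 3 met the limits on both ratios, and they carry no gene name. Their Δku70 means were 41.0, 26.2 and 187 scaled FPKM, their ratios in ΔcxrA 0.245, 0.215 and 0.135, and their ratios in Δprmt3 0.760, 0.875 and 0.766.

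The actin gene POX_d06005 was 2.67-fold higher in ΔcxrA than in Δku70 (log2 fold change 1.41, adjusted p = 1.9e-06 from limma, with no overlap between the libraries) and 0.973 times Δku70 in Δprmt3, so a level relative to actin in ΔcxrA would be lower than the scaled FPKM of the 94 genes given here.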
